A study of Homo sapiens with 6 samples.

Results

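The genes described here encode the proteins of the mitochondrial ribosome that carry the symbols MRPL (large subunit) or MRPS (small subunit). They were chosen by symbol alone, as every table entry named MRPL or MRPS followed by a number and, for some, a letter A to C. This gave 78 gene entries with 76 symbols, 48 entries (47 symbols) for MRPL and 30 entries (29 symbols) for MRPS, among 57861 usable genes. MRPL30 and MRPS17 each had 2 entries under separate gene identifiers, and pseudogenes were left out by the form of the name.

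RNA sequencing was carried out on the multiple myeloma cell line MOLP-8, an established human line, in 2 groups of 3 libraries. Control cells had been transduced with a scrambled guide and LIN28B KO cells with an sgRNA against LIN28B, in the lentiCRISPRv2 vector in either case, which carries Cas9, the guide and a puromycin resistance gene. Puromycin at 1 ug/mL was used for selection in both groups. LIN28B binds precursors of the let-7 microRNAs and keeps them from maturing, and the comparison asks which transcripts differ when it is targeted. The titles of the targeted libraries call them knockdown (KD) and the condition label calls them LIN28B KO. Whether the cells were a pool or a clone is not said in the labels. Nothing there says that the 3 libraries of a group were separate cultures either, so a p-value measures the spread between these libraries alone, which may be technical spread.

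The mitochondrial ribosome is a separate ribosome inside the organelle. It translates the few mRNAs encoded by mitochondrial DNA, all of which are for subunits of the respiratory chain and ATP synthase. Its RNAs come from mitochondrial DNA, while every one of its proteins is encoded in the nucleus, made in the cytosol and imported. About the core of the particle sit proteins of families shared with bacterial ribosomes, and around them sit proteins that exist only in mitochondrial ribosomes. The symbols do not always match the place in the particle: MRPS18A and MRPS30 are found in the large subunit, and MRPS36 has been assigned to the 2-oxoglutarate dehydrogenase complex.

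LIN28B, the targeted gene, stood at 23.3, 24.3 and 25.5 FPKM (fragments per kilobase of transcript, scaled to sequencing depth, the deposited unit) with the scrambled guide, and with the LIN28B guide at 8.41, 8.17 and 5.84 FPKM. The groups did not overlap, and the limma fit across all genes put the log2 difference at -1.66 (SE 0.17, adjusted p = 0.0207). The exact permutation test (two-sided, 3 against 3) gave p = 0.10, the smallest that the design allows. The limma call was lost with 5 of the 6 libraries left out in turn (adjusted p up to 0.185), the exception being LIN28B KO library 3. The labelled cell type was matched by its markers: all 8 plasma cell and myeloma genes looked up were expressed, with summed levels of 3169 to 3248 FPKM in control and of 3066, 3188 and 2164 FPKM after LIN28B targeting. The summed markers of B, T or NK, myeloid, erythroid and stromal cells did not pass 7.69 FPKM in any library, and MS4A1, CD3D and NKG7 were listed at 0 throughout. Of the 8, SLAMF7 and TNFRSF17 rose without library 3 (0.93, SE 0.10, limma adjusted p = 0.0198, and 0.41, SE 0.07, adjusted p = 0.0329), where 1.08% of all protein-coding genes were called higher. They rose also after cyclic loess, but passed no threshold with all 6 libraries (adjusted p = 0.235 and 0.420). The median log2 fold change of the 8 was -0.01 without library 3, with 4 negative, and -0.18 with all 6 libraries, with 5 negative. Of 3 epithelial markers KRT8 was expressed, and the summed level of the 3 was 111 to 122 FPKM in control and 85.6, 94.0 and 69.7 FPKM after LIN28B targeting. KRT8 fell without library 3 (-0.38, SE 0.07, adjusted p = 0.0382), a call lost after cyclic loess (adjusted p = 0.0718) and with all 6 libraries (adjusted p = 0.297). The part of these markers in the results was not tested.

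The third LIN28B KO library was unlike the other 5. Of 349 olfactory receptor genes, which are not known to act in plasma cells, 28.7% had a value above 0 in it against 8.88% to 14.3% in the other libraries. MALAT1, a nuclear long non-coding RNA, reached 892 FPKM in it against 259 to 331 FPKM elsewhere. Results are therefore given with all 6 libraries and without LIN28B KO library 3. The depth, estimated from the deposited bounds, was 4808210 to 8368315 fragment equivalents a library. This is a rough estimate: among low-count genes only 37.6% to 43.1% gave nearly whole numbers, so the bounds are not plain counting error for every gene. The median bound of a mitochondrial ribosomal protein gene lay 7.34% to 10.3% from its value, which leaves out the spread between libraries.

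In the control cells nearly all of these genes were expressed at a moderate level. Of the 78 entries 76 had a control mean above 1 FPKM, and these ran from 15.0 to 158 FPKM with a median of 45.7 FPKM. The coefficient of variation over the 3 control libraries had a median of 4.40% and ran from 0.440% for MRPL37 to 27.3% for the main MRPL30 entry. The genes lay on 21 chromosomes.

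The highest control levels belonged to 4 large subunit genes. MRPL9, a bacterial-family protein, had a control mean of 158 ± 8.27 FPKM (SD, n = 3), MRPL20, which binds early in the assembly of the large subunit, 156 ± 9.83 FPKM (SD, n = 3), and MRPL34, a small basic protein of the subunit's core, 155 ± 6.19 FPKM (SD, n = 3). MRPL52, found only in mitochondrial ribosomes, followed at 152 ± 17.5 FPKM (SD, n = 3). The control values of these 4 overlapped from each to the next, and all of them lay above those of MRPL38 at 127 ± 4.96 FPKM (SD, n = 3). The highest gene with an MRPS symbol, MRPS34, was at 109 ± 3.84 FPKM (SD, n = 3). At the lower end were MRPL46 at 16.6 ± 0.407 FPKM (SD, n = 3) and MRPS31 at 15.0 ± 0.366 FPKM (SD, n = 3). FPKM is scaled to transcript length, so these levels can be compared between genes, within what the length model of each gene allows.

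**Figure D1:**
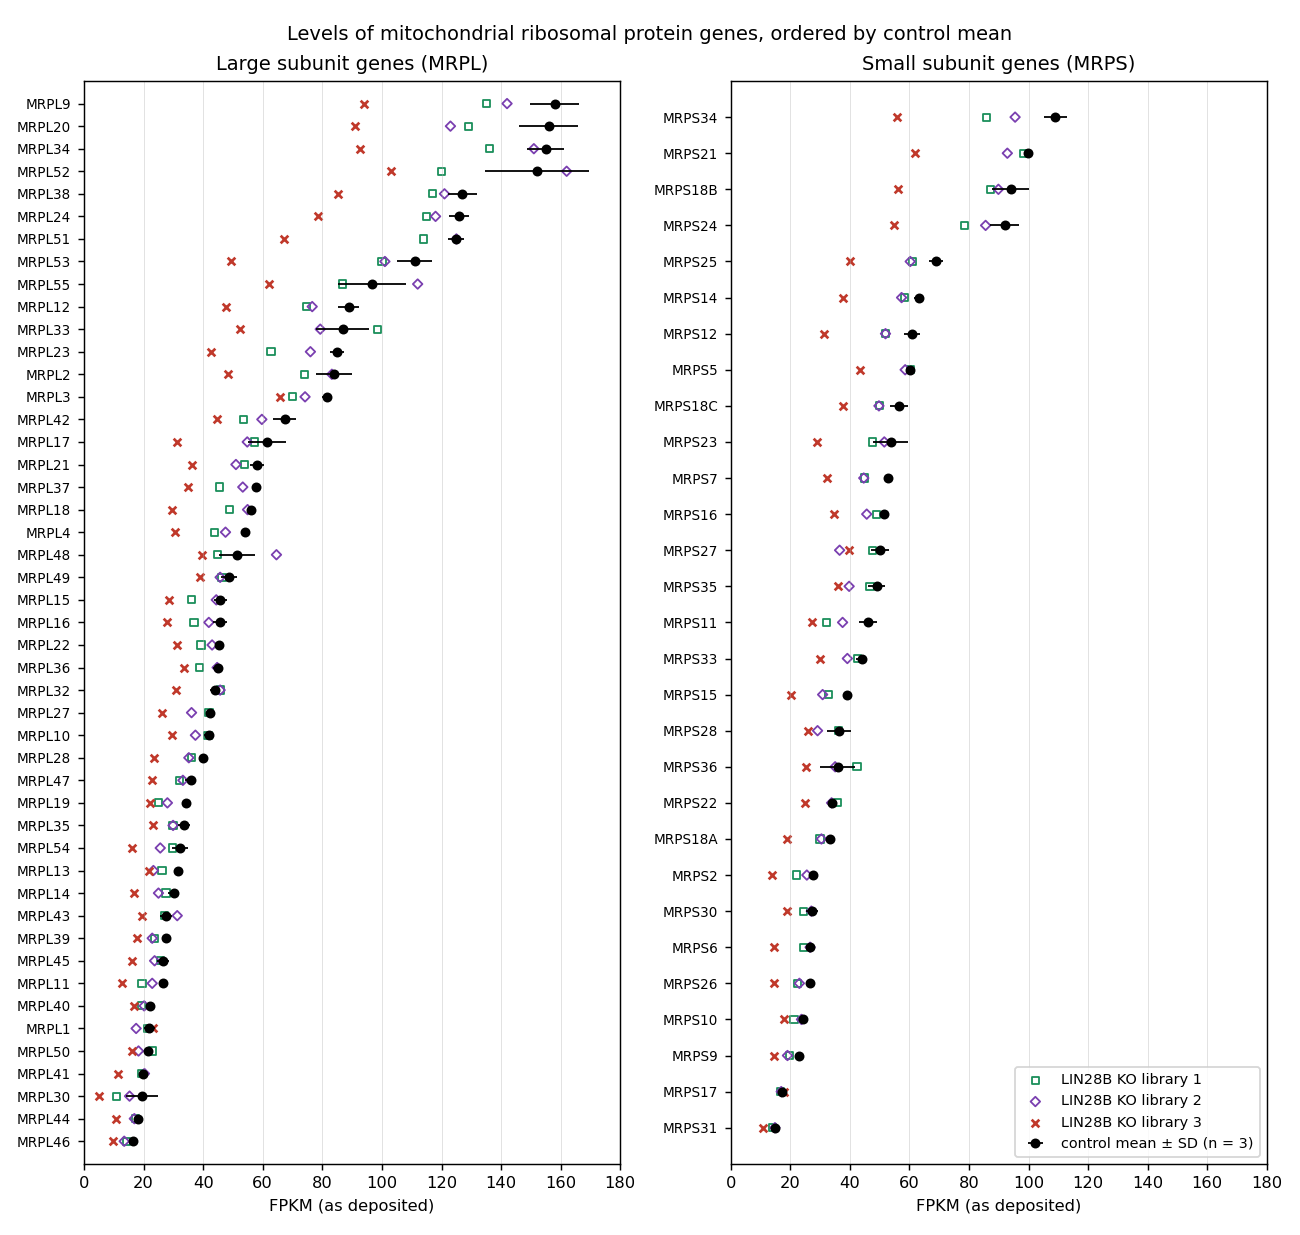
Levels in FPKM of the 76 gene entries above 1 FPKM in control, ordered by control mean (black points with SD, n = 3). Genes with MRPL symbols are on the left, titled large subunit, and those with MRPS symbols on the right, titled small subunit. Squares, diamonds and crosses are LIN28B KO libraries 1 to 3. The highest genes are MRPL9, MRPL20, MRPL34 and MRPL52, and most crosses of library 3 lie to the left of the other symbols.

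The total for MRPL symbols did not move apart from that for MRPS symbols. The sums follow the symbols and not the place in the particle. MRPS18A, MRPS30 and MRPS36 thus count as MRPS, and ribosome proteins under other symbols are in neither sum. Summed MRPL levels were 2891, 2869 and 2886 FPKM in control and 2539, 2695 and 1783 FPKM after LIN28B targeting. Summed MRPS levels were 1439, 1408 and 1411 FPKM in control and 1286, 1274 and 888 FPKM after LIN28B targeting. For both sums every LIN28B KO library lay below every control, and library 3 was the lowest. The ratio of the MRPL sum to the MRPS sum was 2.01, 2.04 and 2.05 in control and 1.97, 2.12 and 2.01 after LIN28B targeting, so that the groups overlapped. In bulk RNA, fewer cells that express the genes and less of their RNA per cell cannot be told apart.

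The sum of all 78 entries was set against the summed FPKM of protein-coding genes. It came to 0.754%, 0.755% and 0.756% in control and 0.706%, 0.731% and 0.680% after LIN28B targeting. MRPL45 and MRPS21, which had no match among the protein-coding genes, are in the first sum only. The 3 controls were nearly alike in this share, and all LIN28B KO libraries were below them. Against the mean of the controls, LIN28B KO libraries 1 and 2 kept 90.6% of the summed level and library 3 kept 62.1%.

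Other genes of like abundance were lower as well in library 3. Among 5322 protein-coding genes with control means in the same range of 15.0 to 158 FPKM, the log2 ratio to the mean of the controls, on log2(FPKM + 0.5), had a median of -0.06 in each of LIN28B KO libraries 1 and 2 and -0.49 in library 3. The corresponding medians of the 76 mitochondrial ribosomal protein entries were -0.16, -0.14 and -0.68. They lay below the medians of the level range in all 3 libraries. The part of the lower values of abundant genes at large in library 3 in those of the members was not tested.

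**Figure D2:**
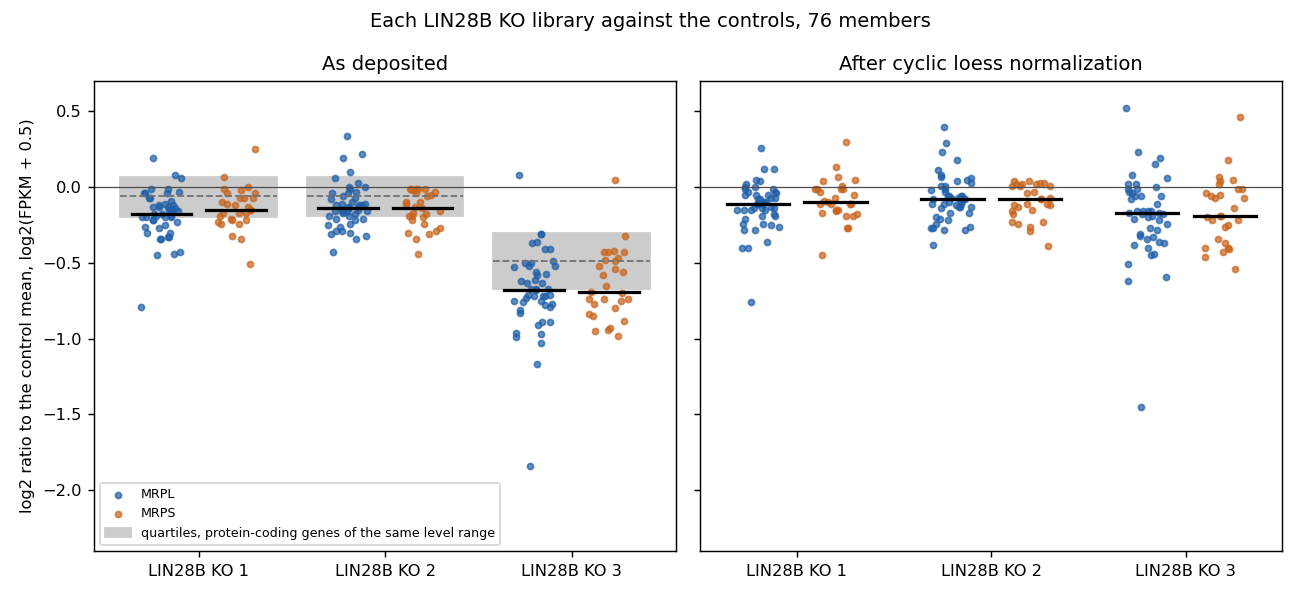
Log2 ratio of each gene to its control mean in LIN28B KO libraries 1 to 3 (76 entries; MRPL blue, MRPS orange; black bars are medians; horizontal positions within a column are random), as deposited on the left and after cyclic loess normalization on the right. Grey boxes are the quartiles, and dashed lines the medians, of 5322 protein-coding genes in the same level range; the medians of the members are -0.16, -0.14 and -0.68 as deposited.

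No large subunit or small subunit gene was called lower or higher with the values as deposited. With all 6 libraries, limma on log2(FPKM + 0.5), a scale that understates the change of low genes, called 0 of 77 tested entries at an adjusted p under 0.05, where it called 5 of 15803 genes lower (0.0316%) and 10 higher (0.0633%). The smallest adjusted p among the 77 was 0.104, and 16 had an unadjusted p under 0.05 (20.8%, against 13.7% of all genes). That smallest value, and 1 of the 16, belonged to the longer MRPL30 entry, which had higher values and passed the filter through the LIN28B KO libraries alone. Among the 76 entries above 1 FPKM in control the smallest adjusted p was 0.297, and 15 had an unadjusted p under 0.05, all with lower values. Without LIN28B KO library 3, 0 of 74 tested protein-coding entries were called, where 341 of 11308 genes were called lower (3.02%) and 122 higher (1.08%). There the smallest adjusted p was 0.0582, and 24 had an unadjusted p under 0.05 (32.4%), all with lower values in LIN28B KO, against 22.8% of all genes in either direction and 15.4% with lower values.

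The values leaned one way. With all 6 libraries the log2 fold change was negative for 76 of 77 entries (98.7%, against 66.5% of all genes), and its median was -0.32, beside -0.13 over all genes. The MRPL median was -0.32 and the MRPS median -0.31. Without LIN28B KO library 3 it was negative for 67 of 74 (90.5%, against 57.3% of all genes), with a median of -0.15 beside -0.04 over all genes, and of -0.14 for MRPL and -0.15 for MRPS. After cyclic loess normalization, which sets the median of all genes to 0.00 in both fits, the medians came to -0.11 with all 6 libraries and to -0.08 without library 3, with negative values for 64 of 77 and 63 of 74.

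Counting libraries gave a like picture. For 41 of 77 entries (53.2%) every LIN28B KO library lay below every control, against 20.1% of all tested genes. The same 41 were found among the 74 entries tested without library 3 (55.4%, against 26.4% of the protein-coding genes). After cyclic loess normalization of all 6 libraries 26 of 77 remained below every control by this rule (33.8%, against 13.3% of all genes). Only the longer entry of MRPL30 lay above every control in all 3 LIN28B KO libraries (1.30%, against 7.61% of all tested genes). It passed the filter on low values through those libraries alone.

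Cyclic loess did not add a call on the lower side. With all 6 libraries it gave 0 lower and 1 higher of 77 entries, against backgrounds of 0.342% and 0.361%. The 1 higher entry was the longer MRPL30 model (adjusted p = 0.0499), taken up further on. Without library 3 it gave 0 of 74 in either direction, against 1.17% lower and 1.08% higher, with 12 entries at an unadjusted p under 0.05. These were 16.2%, all with lower values, against 20.9% of all genes in either direction and 10.5% with lower values. The MRPL and MRPS medians were -0.11 and -0.10 with all 6 libraries and -0.08 and -0.09 without library 3.

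**Figure D3:**
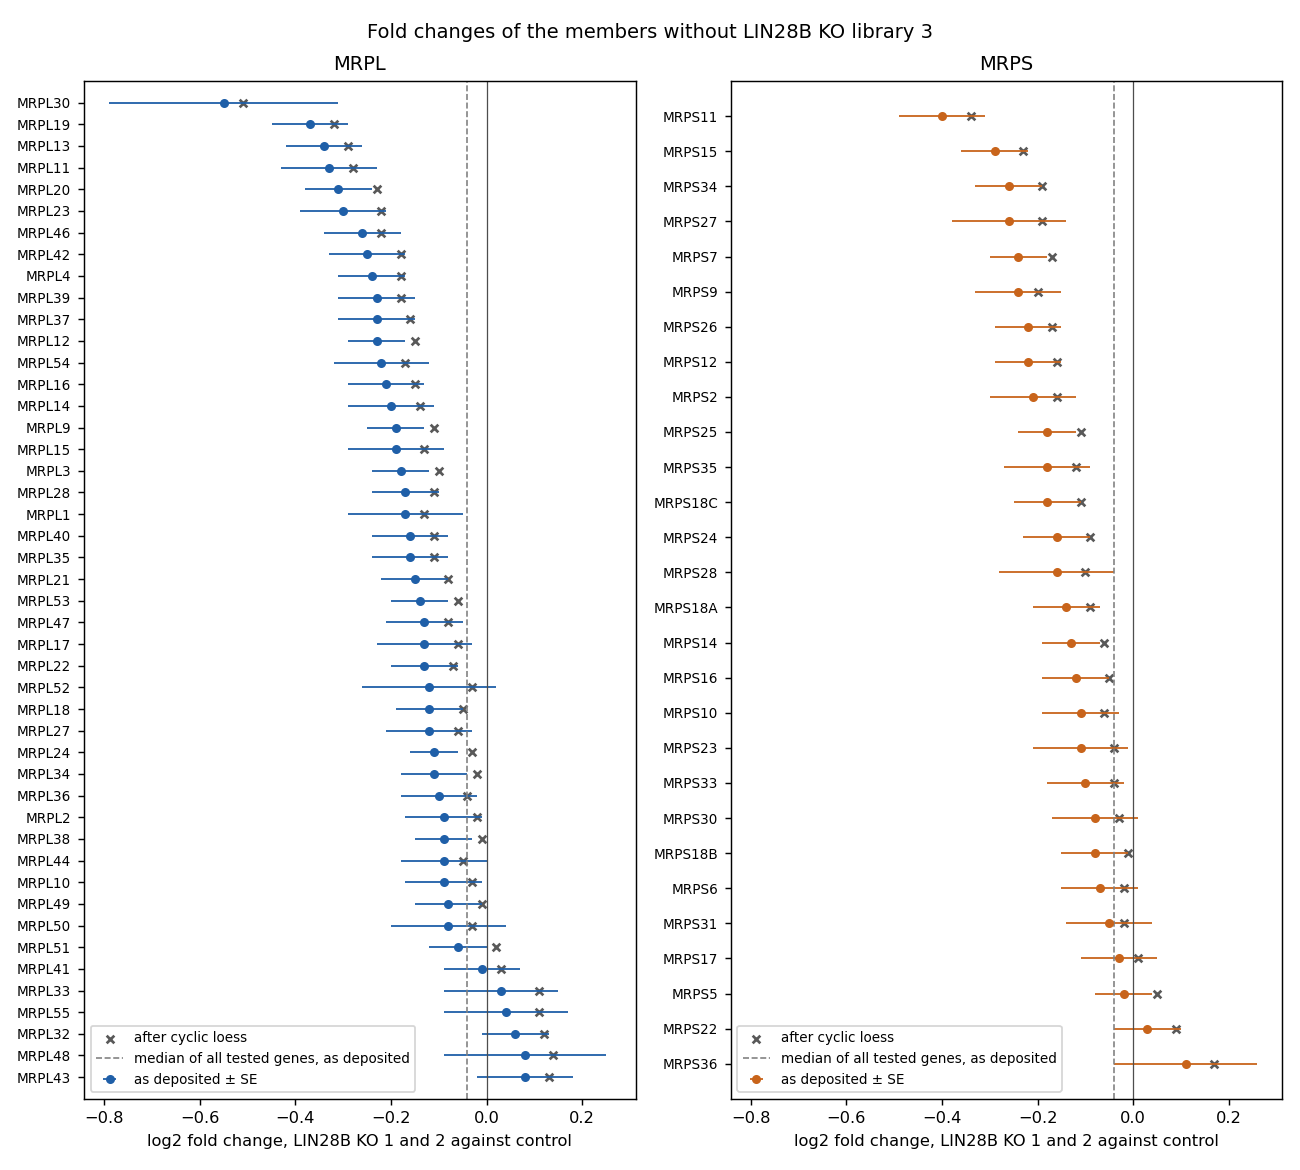
Log2 fold change of LIN28B KO libraries 1 and 2 against the 3 controls for the 74 tested entries, with the SE of the limma fit (coloured points) and after cyclic loess normalization (crosses); the dashed line is the median of all tested genes as deposited, -0.04. The values run from -0.55 for MRPL30 to 0.11 for MRPS36, and 67 of 74 are below 0.

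Among large subunit genes the smallest p without library 3 belonged to MRPL20. It stood at 154, 147 and 166 FPKM with the scrambled guide and at 129, 123 and 91.1 FPKM with the LIN28B guide, so that the groups did not overlap and library 3 was lowest. Its log2 fold change was -0.31 (SE 0.07, limma adjusted p = 0.0582) without library 3, -0.46 (SE 0.17, adjusted p = 0.332) with it, and -0.23 (adjusted p = 0.138) after cyclic loess without it. It therefore missed the threshold in each of these fits. Its locus in the files is on chromosome 1 at 1337288 to 1342693 (GRCh37) and overlaps another expressed gene model, RP4-758J18.2, from which its fragments cannot be told apart without strand.

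MRPL19, a protein at the interface between the subunits, had 33.6, 33.5 and 35.8 FPKM in control and 25, 28.0 and 22.2 FPKM after LIN28B targeting. MRPL13, another early binder of the large subunit, had 31.0, 32.5 and 31.1 FPKM in control and 26.2, 23.3 and 21.8 FPKM after LIN28B targeting. In both genes all LIN28B KO libraries were below all controls. Without library 3 the log2 fold change was -0.37 for MRPL19 (SE 0.08, limma adjusted p = 0.0605) and -0.34 for MRPL13 (SE 0.08, adjusted p = 0.0703). After cyclic loess they were -0.32 and -0.29.

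The proteins of the stalk, the flexible arm that brings translation factors to the ribosome, did not share one pattern. MRPL12, the stalk protein itself, had 87.9, 86.1 and 92.6 FPKM in control and 74.7, 76.6 and 47.6 FPKM after LIN28B targeting (without library 3, -0.23, SE 0.06, limma adjusted p = 0.0875). MRPL11, at the base of the stalk, had 27, 25 and 27.9 FPKM in control and 19.5, 22.9 and 12.8 FPKM after LIN28B targeting (-0.33, SE 0.10, adjusted p = 0.120). Both had every LIN28B KO library below every control. MRPL10, which anchors the stalk, had 43.3, 40.0 and 42.7 FPKM in control and 41.6, 37.4 and 29.6 FPKM after LIN28B targeting (-0.09, SE 0.08, adjusted p = 0.555), and its groups overlapped.

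The same held for proteins near the exit of the tunnel through which the new chain leaves. Among them MRPL23 had 82.6, 87.1 and 85.1 FPKM in control and 62.8, 76 and 42.6 FPKM after LIN28B targeting (-0.30, SE 0.09, limma adjusted p = 0.114), with no overlap of the groups. That value was -0.16 without LIN28B KO library 1 as well. MRPL22 was at -0.13 (SE 0.07, adjusted p = 0.314) and MRPL24 at -0.11 (SE 0.05, adjusted p = 0.263), again with no overlap. MRPL45, which holds the ribosome to the inner membrane, had 28.9, 25.2 and 25.7 FPKM in control and 25.8, 23.7 and 16.1 FPKM after LIN28B targeting, with overlapping groups, and its difference was -0.30 (SE 0.19, adjusted p = 0.470) with all 6 libraries. Without library 3 it was -0.10 (SE 0.09, adjusted p = 0.581) in the fit over all genes, since it had no match among the protein-coding ones.

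Core proteins of the large subunit lay in the same range. MRPL3, which reaches toward the peptidyl transferase centre, had 82.2, 79.6 and 83.0 FPKM in control and 70.0, 74.2 and 65.9 FPKM after LIN28B targeting. MRPL4 had 53.5, 55.2 and 53.8 FPKM in control and 43.9, 47.5 and 30.6 FPKM after LIN28B targeting. Neither gene's groups overlapped, and the limma values without library 3 were -0.18 for MRPL3 (SE 0.06, adjusted p = 0.144) and -0.24 for MRPL4 (SE 0.07, adjusted p = 0.0955). MRPL3 kept more of its level in library 3 than MRPL4 did, and with all 6 libraries its value after cyclic loess was 0.00.

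The 4 most abundant genes differed among themselves. MRPL9 had 167, 154 and 153 FPKM in control and 135, 142 and 93.9 FPKM after LIN28B targeting (-0.19, SE 0.06, limma adjusted p = 0.137), with no overlap. MRPL34 had 157, 148 and 160 FPKM against 136, 151 and 92.7 FPKM (-0.11, SE 0.07, adjusted p = 0.376). MRPL52 had 137, 171 and 147 FPKM against 120, 162 and 103 FPKM (-0.12, SE 0.14, adjusted p = 0.670). In MRPL34 and MRPL52 the value of LIN28B KO library 2 fell inside the control range, and MRPL52 had the widest control spread of the 4.

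Among small subunit genes MRPS11 had the largest difference. This protein of the subunit's platform stood at 46.1, 49.0 and 43.2 FPKM with the scrambled guide and at 32.3, 37.6 and 27.2 FPKM with the LIN28B guide, with no overlap. Its log2 fold change was -0.40 (SE 0.09, limma adjusted p = 0.0697) without library 3, -0.51 (SE 0.15, adjusted p = 0.298) with it, and -0.34 (adjusted p = 0.115) after cyclic loess without it. MRPS15, a protein that binds the small subunit RNA early in assembly, had 39.4, 40.2 and 37.9 FPKM in control and 33.0, 30.9 and 20.3 FPKM after LIN28B targeting (-0.29, SE 0.07, adjusted p = 0.0773).

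MRPS34, a mitochondria-specific protein needed for a stable small subunit, had 113, 109 and 105 FPKM in control and 85.9, 95.5 and 55.9 FPKM after LIN28B targeting (-0.26, SE 0.07, limma adjusted p = 0.0860). MRPS12, which lies at the decoding centre, had 60.9, 58.1 and 63.6 FPKM in control and 52.0, 52.0 and 31.4 FPKM after LIN28B targeting (-0.22, SE 0.07, adjusted p = 0.111). MRPS7, a protein of the head that helps start assembly, had 52.9, 54.2 and 51.7 FPKM in control and 45.0, 44.7 and 32.4 FPKM after LIN28B targeting (-0.24, SE 0.06, adjusted p = 0.0875). In these 3 genes, as in MRPS15, every LIN28B KO library was below every control.

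The S18 family has 3 human genes, of which MRPS18C and MRPS18B belong to the small subunit and MRPS18A to the large one. MRPS18C had 53.2, 58.3 and 58.1 FPKM in control and 50, 49.8 and 37.6 FPKM after LIN28B targeting (-0.18, SE 0.07, limma adjusted p = 0.192). MRPS18A had 34.7, 33.1 and 32.5 FPKM against 30, 30.5 and 19 FPKM (-0.14, SE 0.07, adjusted p = 0.282). MRPS18B had 101, 93.3 and 88.2 FPKM against 87.3, 89.9 and 56.2 FPKM (-0.08, SE 0.07, adjusted p = 0.534). The groups overlapped only for MRPS18B, the most abundant of the 3, and whether the paralogs differ from each other in their change was not tested.

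Some members had values near 0 or of changing sign. MRPS17, a bacterial-family protein, had 18, 16.6 and 17 FPKM in control and 16.7, 17 and 17.8 FPKM after LIN28B targeting under its main entry. MRPL1 had 22.7, 19.7 and 23.3 FPKM in control and 21.3, 17.5 and 23.2 FPKM after LIN28B targeting. Both overlapped between the groups. Without library 3 MRPS17 was at -0.03 (SE 0.08, limma adjusted p = 0.875), while MRPL1 was at -0.17 (SE 0.12, adjusted p = 0.430), with library 2 below every control. With MRPS27 they were the only members above 1 FPKM in control that were not lowest in library 3. MRPS36 had 40.2, 29.1 and 38.5 FPKM in control and 42.4, 35.1 and 25.2 FPKM after LIN28B targeting (without library 3, 0.11, SE 0.15, limma adjusted p = 0.707), and MRPL43 had 29.9, 26.4 and 26.2 FPKM against 26.9, 31.3 and 19.4 FPKM (0.08, SE 0.10, adjusted p = 0.690). The sign of MRPS36 and of MRPL43 turned with the libraries and the scaling used: with all 6 libraries they were -0.09 and -0.11 as deposited and 0.11 and 0.07 after cyclic loess. MRPS31 had 15.1, 14.6 and 15.3 FPKM against 14, 14.9 and 11 FPKM (-0.05, SE 0.09, adjusted p = 0.760), and library 2 was inside the control range.

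The members were also divided by origin, from general knowledge and after their values had been seen, into 47 symbols of families shared with bacteria and 29 others, MRPS36 among them, called mitochondria specific here. Medians of the log2 fold change were -0.33 and -0.27 with all 6 libraries and -0.16 and -0.11 without library 3. After cyclic loess without library 3 they were -0.10 and -0.04. Of the bacterial-family entries 44 of 46 tested had negative values without library 3, and of the mitochondria-specific ones 23 of 28. These are descriptions of overlapping distributions, and no test was made of their difference.

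The identity of MRPL30 in these data depended on the gene model. Its main entry (ENSG00000185414, chromosome 2 at 99797542 to 99814089 in GRCh37) had 24.9, 19.2 and 14.3 FPKM in control and 10.8, 15.3 and 4.94 FPKM after LIN28B targeting. A longer entry of the same symbol (ENSG00000273155, chromosome 2 at 99771461 to 99811761), which overlaps the first and spans the genes LIPT1 and MITD1, was listed at 0 in control libraries 1 and 2, at 0.584 FPKM in control library 3 and at 5.03, 2.95 and 3.93 FPKM after LIN28B targeting. The main entry thus tended to be lower where the longer one was higher, and by coefficient of variation its control values spread most among members above 1 FPKM in control. The groups overlapped for the main entry and did not for the longer one.

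With all 6 libraries limma gave -0.98 (SE 0.39, adjusted p = 0.354) for the main entry and 2.76 (SE 0.38, adjusted p = 0.104) for the longer one. The value of the longer entry rests on levels listed at 0, ran from 2.07 to 4.39 with other settings that kept all libraries, and is no measure of a fold. It passed the threshold after cyclic loess (adjusted p = 0.0499) and without control library 3, its only control library above 0 (adjusted p = 0.0322). The longer entry met the filter on low values only through the LIN28B KO libraries, where it was high. Its calls are therefore no support for a difference. The sum of both entries was 24.9, 19.2 and 14.9 FPKM in control and 15.8, 18.2 and 8.87 FPKM after LIN28B targeting. These overlapped, and the difference of the log2 group values of the sum was -0.47 with all libraries and -0.17 without library 3. Whether the longer transcript itself was present, or fragments were divided differently between the models, was not tested.

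**Figure D4:**
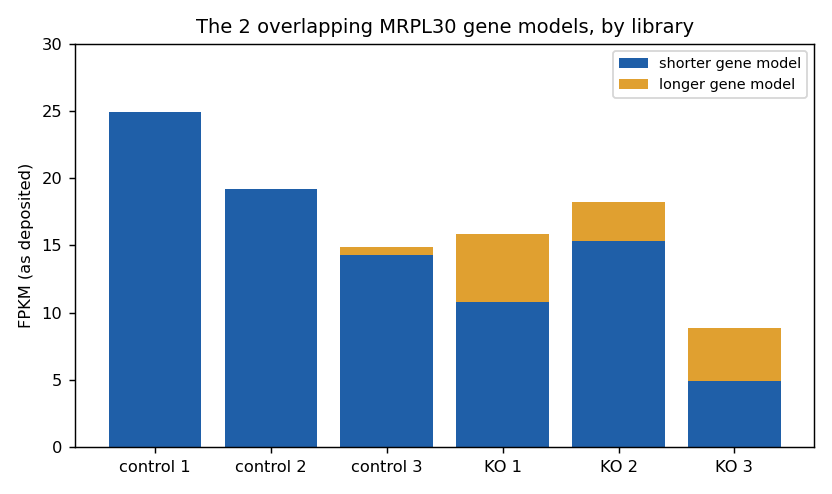
FPKM of the 2 overlapping MRPL30 gene models in each library, stacked; the shorter model is the main entry. The longer model is listed at 0 in 2 controls, at 0.584 FPKM in the third and at 2.95 to 5.03 FPKM in the LIN28B KO libraries, while the height of the stacks overlaps between the groups.

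MRPS17 also had a second, longer entry, at 0.436, 0.00582 and 0.184 FPKM with the scrambled guide and at 0.327, 0 and 0.234 FPKM with the LIN28B guide, which was under the filter on low values and entered no test. Added to the main entry it gave sums of 18.4, 16.6 and 17.2 FPKM in control and 17, 17 and 18 FPKM after LIN28B targeting, which overlapped. For 39 of the 78 entries the locus overlapped another gene at 1 FPKM or more in control. Of 68 pseudogene, readthrough and antisense models named after members, 8 reached 1 FPKM. Among them MRPS31P5 had 4.57, 4.73 and 4.08 FPKM in control and 4.31, 3.36 and 4.09 FPKM after LIN28B targeting. MRPL45P2 had 0.587, 1.63 and 0.866 FPKM in control and 1.20, 2.88 and 5.10 FPKM after LIN28B targeting. MRPS17P1 had 0.366, 0.262 and 0.328 FPKM against 0.532, 0.716 and 2.14 FPKM. MRPS18AP1 had 0.284, 1.49 and 0.441 FPKM against 0.556, 0.266 and 0.771 FPKM. How reads were divided between such copies is not given in the sources used here, so values of the genes concerned are uncertain to that extent.

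Promoter sequences from RefSeq (GRCh38.p14, 250 bases before to 50 bases after the start) were found for 68 of the 76 symbols. Shown here are MRPL20, the member with the smallest p without library 3, and the head-to-head pair of MRPL46 and MRPS11, since many members had lower values together. All 68 were searched on both strands for 4 short words known from promoters of nuclear genes for mitochondria: GCATGCGC (NRF1), CCGGAAG (ETS family, which includes GABP), AAGATGG (YY1) and CACGTG (E-box, bound by MYC and others). In MRPL20 (chr1:1407244-1407543, minus strand) the capitals mark a pair of ETS words before the start and a YY1 word after it. MRPL46 (chr15:88467339-88467638, minus strand) and MRPS11 (chr15:88467458-88467757, plus strand) start head to head, and their windows share 181 bases. A match is a description of letters and does not show that a factor binds.
MRPL20: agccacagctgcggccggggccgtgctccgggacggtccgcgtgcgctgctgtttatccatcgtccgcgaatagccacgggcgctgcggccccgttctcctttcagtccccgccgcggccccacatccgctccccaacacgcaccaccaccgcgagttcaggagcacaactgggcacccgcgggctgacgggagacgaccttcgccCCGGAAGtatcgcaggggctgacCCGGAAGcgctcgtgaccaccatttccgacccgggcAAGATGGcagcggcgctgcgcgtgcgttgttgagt
MRPL46: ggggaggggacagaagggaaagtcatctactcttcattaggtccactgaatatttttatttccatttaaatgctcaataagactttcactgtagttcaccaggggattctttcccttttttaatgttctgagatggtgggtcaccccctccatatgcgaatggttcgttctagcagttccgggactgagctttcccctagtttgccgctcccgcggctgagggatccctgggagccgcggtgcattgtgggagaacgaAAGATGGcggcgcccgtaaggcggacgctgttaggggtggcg
MRPS11: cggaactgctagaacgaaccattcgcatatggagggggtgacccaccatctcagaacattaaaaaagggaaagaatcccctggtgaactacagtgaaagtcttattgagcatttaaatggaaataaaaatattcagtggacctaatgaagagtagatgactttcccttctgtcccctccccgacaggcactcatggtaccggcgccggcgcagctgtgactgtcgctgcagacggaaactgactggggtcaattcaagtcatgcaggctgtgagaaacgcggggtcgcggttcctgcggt

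The ETS word was held by 28 of the 68 promoters (41.2%) and by 14.2% of the 15842 protein-coding promoters of the same length. The YY1 word was held by 23 (33.8%), against 6.4% of all promoters. The NRF1 word was held by 6 (8.82%, against 4.26%) and the E-box by 7 (10.3%, against 8.88%). MRPL and MRPS symbols were alike in this, with the ETS word in 40.0% of MRPL and 42.9% of MRPS promoters and the YY1 word in 35.0% and 32.1%. A total of 9 promoters held both the ETS and the YY1 word and 23 held none of the 4. In MRPL17 an NRF1 word on each strand overlaps the other. The promoters were not richer in G and C than others, with a median of 60.2% against 62.7%.

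**Figure D5:**
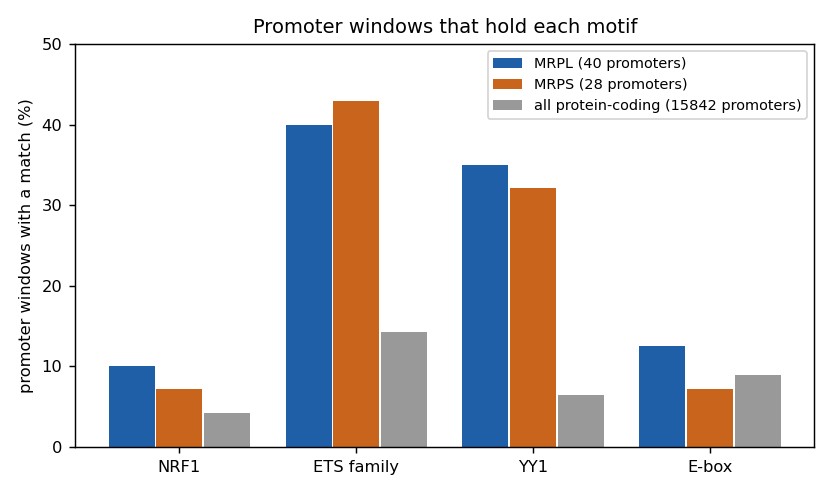
Percentage of promoter windows of 300 bases that hold each of 4 motifs on either strand, for 40 MRPL promoters, 28 MRPS promoters and all 15842 protein-coding promoters in the RefSeq table. The ETS word is in 41.2% and the YY1 word in 33.8% of the 68 member promoters, against 14.2% and 6.4% of all.

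The YY1 word lay most often just after the start. Of its 24 matches in member promoters 20 were on the strand of the gene, and 16 of these began 6 to 35 bases after the start, while the other 8 began before it. Such a match after the start was found in 23.5% of member promoters and in 2.58% of all. The excerpts of 30 bases below show the word, in capitals, in 7 members of both subunits. The word contains the letters of a start codon, and whether it covers the first codon of each gene was not looked at. The excerpts come from GRCh38.p14 at chr1:1407260-1407289 (MRPL20, minus strand), chr11:66438806-66438835 (MRPL11, minus), chr15:88467362-88467391 (MRPL46, minus), chr12:6493223-6493252 (MRPL51, minus), chr17:75261887-75261916 (MRPS7, plus), chr6:43687764-43687793 (MRPS18A, minus) and chr6:30617852-30617881 (MRPS18B, plus).
MRPL20: ccgacccgggcAAGATGGcagcggcgctgc
MRPL11: acctctggcccAAGATGGtggcgcccagag
MRPL46: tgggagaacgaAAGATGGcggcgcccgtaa
MRPL51: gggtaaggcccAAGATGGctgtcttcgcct
MRPS7: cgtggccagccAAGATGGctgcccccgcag
MRPS18A: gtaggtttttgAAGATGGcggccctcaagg
MRPS18B: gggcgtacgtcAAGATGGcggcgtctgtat

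The examples with the word did not share a single pattern of values. Of the genes just shown, MRPL20, MRPL11, MRPL46, MRPS7 and MRPS18A had every LIN28B KO library below every control, while the groups overlapped for MRPL51 and MRPS18B. MRPL19, MRPL12 and MRPS11 hold none of the 4 words in their windows and had non-overlapping groups too. With all 6 libraries such lower, non-overlapping values were found for 53.2% of the tested members and 20.1% of all tested genes. These genes are picked examples, and whether the word goes with the values was not tested over all promoters.

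Paired starts were frequent. Of the 68 promoters 19 (27.9%) had another gene starting in the opposite direction within 1000 bases, against 11.3% of all promoters. MRPL46, whose protein is mitochondria specific, and MRPS11 form such a pair across the subunits, with starts 320 bases apart. MRPL46 had 17, 16.7 and 16.2 FPKM in control and 14.2, 13.5 and 9.90 FPKM after LIN28B targeting (without library 3, -0.26, SE 0.08, limma adjusted p = 0.135), so that both genes of the pair, MRPS11 at -0.40, had non-overlapping groups. Both loci overlap the expressed model RP11-97O12.7 in the files, and fragments of overlapping genes cannot be told apart without strand.

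MRPS12 is paired with SARS2, the mitochondrial seryl-tRNA synthetase, with starts 181 bases apart. SARS2 had 30.5, 26.8 and 26.2 FPKM in control and 25.2, 26 and 16.5 FPKM after LIN28B targeting (-0.12, SE 0.09, limma adjusted p = 0.501), and its LIN28B KO libraries lay below every control. Over the 15 neighbours tested without library 3 that are no members themselves, 13 had negative values, where 57.3% of all genes did, with a median of -0.13. Of the 15, 1 was called lower, where 3.02% of all genes were. This was NCAPD2, a condensin subunit beside MRPL51, with 76.7, 81.5 and 78.8 FPKM in control and 63.3, 51.0 and 47.3 FPKM after LIN28B targeting (-0.47, SE 0.10, adjusted p = 0.0493), while MRPL51 itself stood at -0.06 (SE 0.06, adjusted p = 0.596). The genes of a pair therefore did not always have like values, but no test was made of the difference within a pair.

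Other genes of mitochondrial translation were looked up from lists of general knowledge. Of 8 proteins of the mitochondrial ribosome that carry other symbols, 0 were called in either direction with or without library 3, and 6 had LIN28B KO libraries 1 and 2 below every control (75%, where the share over all protein-coding genes, for this and the lists that follow, was 26.4%). DAP3, a GTP-binding protein of the small subunit, had 281, 282 and 271 FPKM in control and 252, 231 and 186 FPKM after LIN28B targeting (without library 3, -0.20, SE 0.05, limma adjusted p = 0.0906). Its level exceeded that of every MRPL and MRPS entry in the control libraries. The medians of these 8 genes were -0.30 with all 6 libraries and -0.14 without library 3.

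Of 16 translation factors of mitochondria 0 were called, with a median of -0.12 without library 3 and 9 of 16 below every control in libraries 1 and 2 (56.2%). The smallest p values belonged to PDF, which removes the formyl group from new chains, at -0.33 (SE 0.11, limma adjusted p = 0.135), TSFM, the exchange factor of the elongation factor TUFM, at -0.27 (SE 0.09, adjusted p = 0.135), and C12orf65, a release factor that rescues stalled ribosomes, at -0.23 (SE 0.08, adjusted p = 0.165). Of 22 genes for charging mitochondrial tRNAs 0 were called, with a median of -0.12 and 10 of 22 below every control (45.5%). NARS2, for asparagine, had 13.4, 13.2 and 13.8 FPKM in control and 10.2, 8.91 and 9.03 FPKM after LIN28B targeting (-0.47, SE 0.10, adjusted p = 0.0529). Its groups did not overlap, and it came close to the threshold without passing it.

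The genes that assemble the mitochondrial ribosome and modify its RNA had smaller differences. Of 21 tested without library 3, 0 were called, 5 lay below every control in libraries 1 and 2 (23.8%, near the 26.4% of all protein-coding genes), and the median was -0.07. Of 13 regulators of mitochondrial transcription and biogenesis, 1 was called lower, where 3.02% of all protein-coding genes were. MYC, a transcription factor whose targets include genes for ribosomes, fell from 215, 211 and 224 FPKM in the controls to 171, 174 and 112 FPKM in the LIN28B KO libraries (-0.33, SE 0.05, limma adjusted p = 0.0298 without library 3). The call was lost after cyclic loess (-0.24, adjusted p = 0.0693) and with all 6 libraries (-0.54, adjusted p = 0.333). MYC is also among the factors that bind the E-box, a word held by 10.3% of member promoters and by 8.88% of all. Of the factors for the other words, NRF1, YY1 and GABPA were not called without library 3. Their values were -0.09 (limma adjusted p = 0.640), -0.09 (adjusted p = 0.545) and -0.14 (adjusted p = 0.455). The part of MYC or of any of these factors in the values of the members was not tested.

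Beside these, the proteins of the cytosolic ribosome and of the respiratory chain had lower values as well. Of 79 cytosolic ribosomal protein genes tested without library 3, 16 were called lower and 0 higher, where 3.02% of all protein-coding genes were called lower. Their median was -0.17, and 67 of 79 were below every control in libraries 1 and 2 (84.8%). After cyclic loess 1 was called lower, where 1.17% of all protein-coding genes were, and the median was -0.05. Of 76 nuclear genes for oxidative phosphorylation 2 were called lower, a share near the 3.02% of all protein-coding genes. Their median was -0.11 (-0.03 after cyclic loess), and 40 of 76 were below every control (52.6%). The 2 called were UQCRH at -0.26 (SE 0.05, limma adjusted p = 0.0382) and ATP5F1 at -0.28 (SE 0.05, adjusted p = 0.0440). Both calls were lost after cyclic loess (adjusted p = 0.133 and 0.134), and with all 6 libraries 0 genes of either list were called. The median of the mitochondrial ribosomal proteins, -0.15 as deposited and -0.08 after cyclic loess, lay between those of the latter 2 lists as deposited and below both after scaling, and the differences between the lists were not tested.

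What the mitochondrial ribosome translates could be followed only in part. Of 15 mitochondrially encoded genes, 12, among them MT-CO1, MT-CYB and both ribosomal RNAs, were listed at 0 in every library, so a value of 0 in these tables can stand for an estimate that failed or was suppressed. MT-ATP6 had 185, 184 and 199 FPKM in control and 179, 175 and 120 FPKM after LIN28B targeting (without library 3, -0.09, SE 0.06, limma adjusted p = 0.375). MT-ND4 had 18.2, 20.9 and 19.9 FPKM against 14.6, 17.8 and 11.8 FPKM (-0.27, SE 0.11, adjusted p = 0.210). The LIN28B KO libraries of both genes lay below every control, and neither gene was called. Of 3 mitochondrially encoded genes tested, only these 2 had negative log2 fold changes, with all 6 libraries and without library 3. The remaining gene, not described here, did not. After cyclic loess without library 3 all 3 were negative.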

How the data were processed

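The authors deposited 1 table of FPKM values a library, with a lower and an upper bound for each gene. The submitters' processing notes name TopHat2, HTSeq, cutadapt and the build GRCh37. For versions, roles, the program behind the FPKM values and the use of strand, the sources used here give nothing. Of 57886 genes, 25 with a failed estimate were left out. Genes with at least 1 FPKM in at least 3 libraries were tested with limma 3.58.1 in R 4.3.3 (trend in the prior variance) on log2(FPKM + 0.5), with Benjamini-Hochberg adjustment over all genes of the fit and a threshold of 0.05. One fit used 6 libraries. The other left out LIN28B KO library 3 and kept protein-coding genes of GENCODE 29, matched by identifier (5560 genes had no match). MRPL45 and MRPS21 had none and were tested without library 3 only in a fit over all genes. The longer MRPL30 entry passed the filter with 6 libraries only, and there through the LIN28B KO libraries alone. The scripts were tested on simulated data. A count test was not used, since the values are not counts.

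The members, the lists of other genes, which come from general knowledge, and the fit without LIN28B KO library 3 were chosen with earlier results of these data known. Members were named by rule: the 8 with the smallest p with 6 libraries and the 12 with the smallest p without library 3, the 4 highest and 4 lowest control means above 0, the largest difference of each sign in each subunit without library 3, the S18 paralogs, MRPL12, MRPS12, MRPL3 and MRPS7, and members under the filter. Up to 3 genes of each other list were named by p without library 3. MRPL1, MRPL10, MRPL17, MRPL22, MRPL24, MRPL37, MRPL38, MRPL45, MRPL51, MRPS27, SARS2, NCAPD2, NRF1, YY1 and GABPA fall outside it and were chosen after their values were seen. Alternatives were other pseudocounts, no filter, quantile and cyclic loess normalization, a replicate block, no variance trend and each library left out. Promoter sequences are from RefSeq (GRCh38.p14); gene loci of the files are in GRCh37.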

Additional observations from a re-analysis of the deposited data

How the results depend on the processing

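These results rest on 3 against 3 or 3 against 2 libraries. LIN28B stayed lower but lost its call with no filter on low values (-1.66, adjusted p = 0.142) and with the replicate block (-1.66, adjusted p = 0.0604); with single libraries left out it ran from -1.75 to -1.50. Deviations from the group means correlated at -0.021, 0.044 and -0.033 for same-numbered libraries and at -0.079 to 0.086 for the other pairs. These values gave no sign of pairing by number but cannot exclude it. With 6 libraries the count of called members was 0, but 1 after cyclic loess, and 0 to 1 with single libraries left out (1 without control library 3, the longer MRPL30 entry).

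The median of the members without library 3, -0.15, was -0.09 after quantile normalization, -0.08 after cyclic loess, and -0.16 to -0.14 with single libraries left out. With 6 libraries it was -0.42 to -0.14 with single libraries left out, the value nearest 0 being that without LIN28B KO library 3. The MRPL median minus the MRPS median ran from -0.02 to 0.00 with 6 libraries and from -0.02 to 0.02 without library 3. Members with all LIN28B KO libraries below all controls numbered 26 after cyclic loess and 41 to 54 with single libraries left out.

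The sign turned for MRPL43 with 6 libraries (0.03 after quantile normalization, 0.07 after cyclic loess, and -0.26 to 0.08 with single libraries left out) and for MRPS36 (0.06, 0.11, and -0.25 to 0.11). MRPL3 came to 0.00 after cyclic loess. Without library 3 and with a further library left out, MRPL43 ran from -0.03 to 0.19, MRPL52 from -0.33 to 0.10 and MRPS36 from -0.03 to 0.25. Values that kept their sign but moved by over 1.5 times were those of MRPL11 (-0.44 to -0.21), MRPL23 (-0.43 to -0.16), the main MRPL30 entry (-0.79 to -0.30), MRPL34 (-0.18 to -0.04), MRPS18B (-0.13 to -0.03) and MRPS31 (-0.10 to -0.01), each nearest to 0 without LIN28B KO library 1 except MRPS18B, which was so without control library 1. The cause was not tested. Over all genes, 15 were called with 6 libraries, but 6 with no filter, 28 after quantile normalization, 111 after cyclic loess and 64 without LIN28B KO library 3, 7 without library 1 and 4 without library 2. Without library 3, 463 were called, but 24 with no filter, 247 after quantile normalization, 254 after cyclic loess, 11 with no variance trend, 0 with the replicate block and 0 with any further library left out, so calls such as MYC rest on all 5 libraries.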
